A study of Homo sapiens with 8 samples.

Results

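The genes described here are the 4 fibroblast growth factor (FGF) receptors FGFR1, FGFR2, FGFR3 and FGFR4, the ligand FGF2, the FGF carrier FGFBP1 and the mitotic gene TACC3. They were chosen by symbol, and all 7 were found among the 27475 human genes of the deposited expression tables. The study sequenced mRNA of RT112 and UM-UC-3, which are established cell lines from human bladder tumours. For 72 h the cells carried either siPAI-1, a mixture of 3 siRNAs against PAI-1, or Scr, a mixture of 3 scrambled siRNAs, at 100 pmol. There were 2 libraries in each of the 4 groups (RT112 Scr, RT112 siPAI-1, UM-UC-3 Scr and UM-UC-3 siPAI-1). With a single line of each kind, a difference between the lines cannot be told apart from any other property in which they differ. The knock-down was repeated in independent experiments, of which there were more than the 2 libraries per group analysed here. Neither the study text nor the labels tie a library to an experiment, and p-values here measure the spread between these libraries, which may be technical.

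FGF receptors are receptor tyrosine kinases. An FGF binds the receptor together with heparan sulfate on the cell surface, and the receptors pair and phosphorylate each other. The adaptor FRS2 carries the signal to the RAS and MAP kinase cascade and to PI3 kinase. PLCG1 carries it from the receptor to phospholipase signalling. Sprouty, SPRED and DUSP proteins are induced by the cascade and damp it. FGFR3 is the receptor most often altered in urothelial carcinoma, by point mutation or by fusion to TACC3. The fusion joins FGFR3, with its kinase, to the coiled-coil end of TACC3, which lets receptors pair without ligand. RT112 is known to carry such an FGFR3-TACC3 fusion. TACC3 itself is a spindle protein that AURKA phosphorylates and that binds microtubules with CKAP5 and clathrin. The values are TPM per gene (reads divided by gene length and scaled to the same sum in each library), in which reads of a fusion transcript cannot be told apart from reads of intact FGFR3 or TACC3, and the epithelial and mesenchymal splice forms of FGFR2 and FGFR3 are added together.

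On GRCh38.p14 (RefSeq), TACC3 lies on chromosome 4 from 1720631 to 1745171 and FGFR3 from 1793293 to 1808867, both on the plus strand. The end of TACC3 is thus 48122 bases before the start of FGFR3, and no gene with a mean of at least 1 TPM lies between them. FGFBP1 lies on chromosome 4 as well, from 15935577 to 15938740 on the minus strand, and FGF2 from 122826682 to 122898236 on the plus strand. FGFR4 is on chromosome 5 from 177086915 to 177098144 (plus strand) and FGFR2 on chromosome 10 from 121478330 to 121598458 (minus strand). The 250 bases before the RefSeq start are shown for FGFR3 and FGFBP1, the 2 of the 7 genes with the largest excess in RT112, and for FGFR4, a receptor with the opposite direction. Capitals mark each CG dinucleotide, and the windows are chr4:1793043-1793292 (plus strand), chr4:15938741-15938990 (minus strand) and chr5:177086665-177086914 (plus strand).
FGFR3: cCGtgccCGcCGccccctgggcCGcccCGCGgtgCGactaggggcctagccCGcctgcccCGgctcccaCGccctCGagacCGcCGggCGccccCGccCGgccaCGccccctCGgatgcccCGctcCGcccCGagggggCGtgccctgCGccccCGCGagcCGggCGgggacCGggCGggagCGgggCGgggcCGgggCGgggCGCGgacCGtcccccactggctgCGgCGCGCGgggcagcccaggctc
FGFBP1: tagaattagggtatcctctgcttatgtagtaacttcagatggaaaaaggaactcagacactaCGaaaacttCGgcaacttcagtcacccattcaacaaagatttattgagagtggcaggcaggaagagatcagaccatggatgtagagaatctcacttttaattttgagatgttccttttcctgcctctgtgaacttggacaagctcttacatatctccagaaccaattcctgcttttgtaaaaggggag
FGFR4: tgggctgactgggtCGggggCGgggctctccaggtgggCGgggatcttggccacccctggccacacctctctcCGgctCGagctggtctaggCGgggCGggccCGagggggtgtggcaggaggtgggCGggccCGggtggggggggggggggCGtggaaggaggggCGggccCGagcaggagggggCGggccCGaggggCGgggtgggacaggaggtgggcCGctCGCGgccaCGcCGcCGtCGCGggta
The windows of FGFR3 and FGFR4, receptors with opposite directions between the lines, were both rich in G and C, and that of FGFBP1 was not. That of FGFR3 had 86.8% G and C with 40 CG dinucleotides, a higher G and C content than in 99.8% of the 35116 RefSeq promoters of the same length. That of FGFR4 had 79.6% with 24 CG dinucleotides, a higher G and C content than in 96.3% of the promoters. By CG dinucleotides the 2 windows were less alike: 97.8% of promoters had fewer than that of FGFR3 and 76.3% fewer than that of FGFR4. That of FGFBP1 had 40.8% with 2, against medians of 58% and 11 over all promoters. The GC box GGGCGG, searched on both strands, occurred 8 times before FGFR3, 7 times before FGFR4 and 0 times before FGFBP1, and 42.6% of all promoters held at least 1. The AP-1 motif TGANTCA, found in 6.57% of all promoters, was in none of the 3 windows. These matches describe letters in a window and not binding.

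Cell type markers differed between the lines. Epithelial and urothelial markers (14 genes, among them keratins, EPCAM and uroplakins) summed to between 12361 and 14016 TPM in the RT112 libraries, with 12 of 14 at 1 TPM or more in both libraries of each group, and to between 227.02 and 245.6 TPM in UM-UC-3. UPK3A was at or near 0 in both lines. The mesenchymal marker VIM was at 2852 to 3142 TPM in UM-UC-3 and at 6.04 to 8.09 in RT112, and ZEB1 at 43.14 to 48.34 against 0.21 to 0.26. The third mesenchymal marker, CDH2, did not follow them, with 9.22 to 12.63 TPM in UM-UC-3 and 7.65 to 20.58 in RT112. Of the leukocyte markers, PTPRC was between 0 and 0.03 TPM and CD3E between 0 and 0.2 TPM in all libraries, while CD68, a lysosomal protein, was at 272.42 to 279.48 TPM in UM-UC-3 and at 14.15 to 19.5 in RT112. Of the fibroblast markers, COL1A2 was at 0 and DCN between 0 and 0.52 TPM, while COL1A1 was at 2.39 to 6.95 TPM. The endothelial markers PECAM1, VWF and CDH5 together reached at most 2.35 TPM.

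The first question was which FGF receptor each line expresses. RT112 was an FGFR3 line and UM-UC-3 an FGFR1 line at the mRNA level. In the Scr libraries all 7 genes differed between the lines, with FGFR2, FGFR3, FGFBP1 and TACC3 higher in RT112 and FGFR1, FGFR4 and FGF2 lower (limma on log2(TPM + 0.1), the scale of every fold change given with its SE, Benjamini-Hochberg adjusted p under 0.05 over 19201 genes). In the same comparison 51.6% of all genes tested were called, so that a call between these lines is common, and the size and the direction of each difference are what describes the genes.

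FGFR3 was at 130.45 and 131.3 TPM in the 2 RT112 Scr libraries and at 2.21 and 1.78 TPM in the UM-UC-3 Scr libraries. The replicates of RT112 were nearly equal, and both lay far above UM-UC-3. The log2 fold change was 5.97 ± 0.13 (SE, adjusted p = 0.000274), a ratio of the mean TPM of 65.6. FGFR2, a receptor of epithelial cells, had the same direction at a lower level. It was at 12.2 and 13.96 TPM in RT112 Scr and at 0.21 in both UM-UC-3 Scr libraries, a log2 fold change of 5.41 ± 0.23 (adjusted p = 0.000487).

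FGFR1, which is common in mesenchymal cells, had the opposite pattern. It was at 74.76 and 86.11 TPM in UM-UC-3 Scr and at 5.81 and 2.88 TPM in RT112 Scr. The groups stood far apart, but the RT112 replicates were unlike each other, and replicate 1 was the highest of the 4 RT112 libraries. VIM, which is far higher in UM-UC-3, was at 7.81 TPM in that library, within the range of the other RT112 libraries. STAC and GALC, also higher in UM-UC-3, had their highest RT112 values there (0.56 and 2.34 TPM). They are taken from the genes most like FGFR1 over the libraries, so they were picked partly by this value. The cause of the high FGFR1 value was not tested. The log2 fold change was -4.26 ± 0.36 (adjusted p = 0.00187). Without UM-UC-3 Scr replicate 1 or 2, which leaves 1 library in that group, the adjusted p was 0.0823 or 0.0873. FGFR4 was at 7.03 and 4.84 TPM in UM-UC-3 Scr and at 1.48 and 1.07 TPM in RT112 Scr. It was low in both lines, and its groups did not overlap. The log2 fold change was -2.13 ± 0.31 (adjusted p = 0.00729), and the call was lost without any 1 of the 4 libraries (adjusted p between 0.0714 and 0.102).

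**Figure D1:**
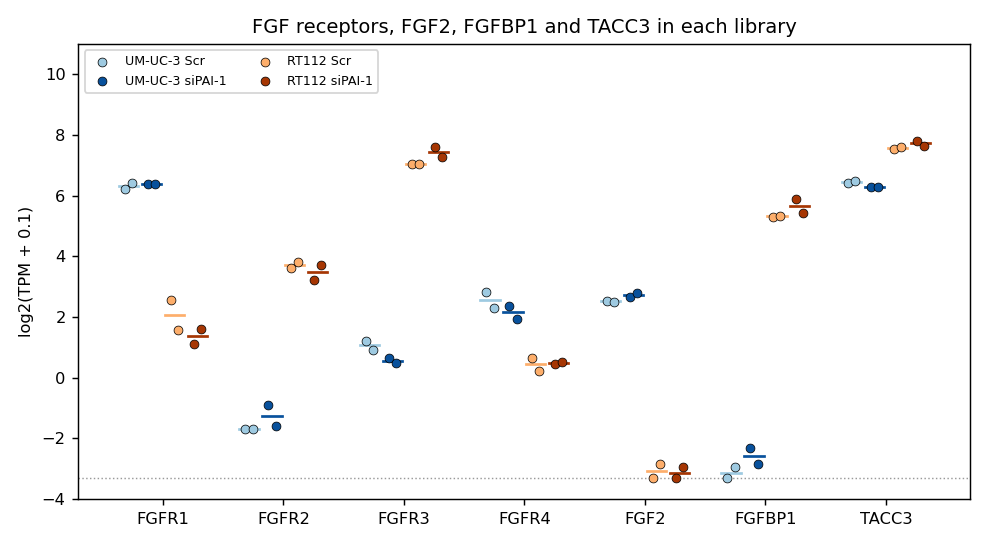
Expression of the 7 genes as log2(TPM + 0.1) in each of the 8 libraries (points, replicate 1 left and 2 right), with the group mean as a bar; the dotted line is a TPM of 0. FGFR2, FGFR3, FGFBP1 and TACC3 lie higher in RT112 and FGFR1, FGFR4 and FGF2 higher in UM-UC-3, with and without siPAI-1.

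As a share of the summed TPM of the 4 receptors, FGFR3 made up 87% and 88% in RT112 Scr, followed by FGFR2 with 8.14% and 9.36%. FGFR1 made up 88.8% and 92.65% in UM-UC-3 Scr, followed by FGFR4 with 8.35% and 5.21%. The order of levels in RT112 Scr was thus FGFR3, FGFR2, FGFR1 and FGFR4, and the values of no pair of neighbours in this order overlapped. In UM-UC-3 Scr it was FGFR1, FGFR4, FGFR3 and FGFR2, again without overlap. The summed receptor TPM was 149.94 and 149.21 in RT112 Scr and 84.21 and 92.94 in UM-UC-3 Scr. TPM is per gene length, so levels of different genes can be set side by side on this scale, except where reads come from a fusion transcript. Such a transcript holds only a part of FGFR3 and of TACC3, and its share of their reads in RT112 is not known here. The receptor shares and the FGFR3 to TACC3 ratios in RT112 carry this limit.

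**Figure D2:**
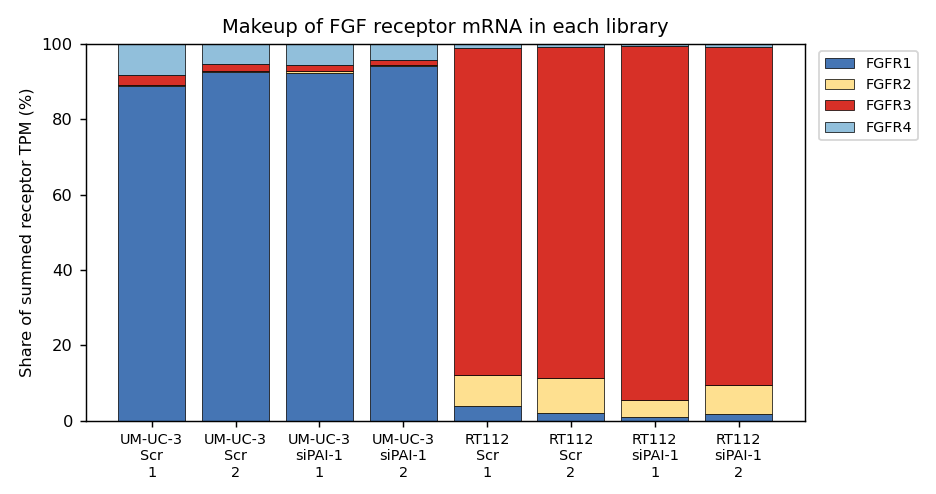
Stacked bars of the share (%) that each FGF receptor gene takes of the summed TPM of FGFR1 to FGFR4, for each library. FGFR1 takes 88.8% to 94.15% in the UM-UC-3 libraries and FGFR3 takes 87% to 93.95% in the RT112 libraries.

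The ligand FGF2 and the carrier FGFBP1, a secreted protein that releases FGF2 from the matrix, were each expressed in 1 line only at a level above 1 TPM. FGF2 was at 5.69 and 5.51 TPM in UM-UC-3 Scr and was listed at 0 and 0.04 TPM in RT112 Scr. FGFBP1 was at 39.56 and 39.69 TPM in RT112 Scr and was listed at 0 and 0.03 TPM in UM-UC-3 Scr. The carrier and the ligand were thus abundant in different lines. The log2 fold change was 8.44 ± 0.25 for FGFBP1 (adjusted p = 0.000313) and -5.59 ± 0.33 for FGF2 (adjusted p = 0.000839). Since 1 group was at or near 0, these sizes depend on the pseudocount. With 1 TPM in place of 0.1 they were 5.32 and -2.69, and with 0.01 TPM they were 10.95 and -7.97, all with an adjusted p under 0.05.

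TACC3 was high in both lines. It was at 187.77 and 193.63 TPM in RT112 Scr and at 86.1 and 89.29 TPM in UM-UC-3 Scr, a log2 fold change of 1.12 ± 0.051 (adjusted p = 0.000543) and a ratio of 2.17. As log2 fold changes, FGFR3 (5.97) and TACC3 (1.12) thus differed by unlike amounts between the lines. A fold change also depends on the lower level, which in UM-UC-3 Scr was a mean of 2.0 TPM for FGFR3 and 87.7 TPM for TACC3. The part of fusion reads in these differences was not tested. In the RT112 Scr libraries the ratio of FGFR3 to TACC3 TPM was 0.695 and 0.678, and in UM-UC-3 Scr 0.0257 and 0.0199.

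The line contrast was measured a second time in the 4 siPAI-1 libraries, which the Scr contrast did not use. These libraries come from the same lines, so this repeats the measurement and is no independent comparison of other lines. All 7 genes were called again in the same direction, against 52.2% of the 19359 genes tested. The log2 fold changes were 6.88 for FGFR3, 4.73 for FGFR2, -5.03 for FGFR1, -1.66 for FGFR4, 8.24 for FGFBP1, -5.86 for FGF2 and 1.43 for TACC3. The FGFR4 call was lost without RT112 siPAI-1 replicate 1 (adjusted p = 0.0973) or 2 (0.0953) and without UM-UC-3 siPAI-1 replicate 1 (0.0568), and the FGFR2 call without RT112 siPAI-1 replicate 2 (0.0547).

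Genes around the receptors were then described in the Scr contrast, list by list, beside a median log2 fold change of -0.06 over all genes tested. Of those 19201 genes, 4850 were higher in RT112, 5059 were lower and 9292 were not called, so that 51.6% were called. The counts in the lists were not tested against this share. Of 22 FGF ligands, 16 were above 0 in at least 1 of the 4 libraries. Of these 1 was higher in RT112, 6 were lower and 9 were not called, with a median of -1.30. FGF13, an intracellular FGF that does not act through the receptors, was at 0.15 TPM in both RT112 libraries and at 21.91 and 18.81 in UM-UC-3. FGF5 was listed at 0 in RT112 and was at 3.66 and 5.19 TPM in UM-UC-3. FGF1, a ligand of all FGF receptors, was at a mean of 0.41 against 4.15 TPM. FGF11, another intracellular FGF, was the ligand list's gene that was higher in RT112, at a mean of 2.58 against 0.04 TPM.

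Of 9 tested co-receptors and carriers, 4 were higher in RT112, 1 was lower and 4 were not called (median 0.64). Apart from FGFBP1, the higher ones were FGFRL1, a receptor without a kinase domain (13.59 against 6.28 TPM, log2 fold change 1.10 ± 0.12), FGFBP3 (3.27 against 1.22 TPM) and FLRT3 (2.21 against 0.285 TPM). FLRT2 was lower (2.04 against 14.88 TPM). Of 19 heparan sulfate genes, 9 were higher, 4 were lower and 6 were not called (median 0.51). SULF2, a sulfatase that trims heparan sulfate on the cell surface, was at 129.86 and 129.49 TPM in RT112 and at 1.56 and 2.39 TPM in UM-UC-3, a log2 fold change of 6.00 ± 0.22 (adjusted p = 0.000409). The core proteins GPC1 (283.4 against 55.3 TPM) and SDC1 (381.5 against 177.3 TPM) and the chain-building enzyme EXT2 (67.6 against 38.1 TPM) were higher too. EXT1, the partner of EXT2, was lower (81.3 against 134.2 TPM), as were NDST2, GPC6 and SULF1. The sulfatases SULF1 and SULF2 thus had opposite directions, with SULF1 listed at 0 in RT112 and at a mean of 0.735 TPM in UM-UC-3.

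Of 16 adaptors and effectors, 2 were higher in RT112, 7 were lower and 7 were not called (median -0.22). The adaptor FRS2 was higher by a log2 fold change of 0.30 ± 0.087 at the edge of the threshold (adjusted p = 0.0495), and PIK3R1, a regulatory subunit of PI3 kinase, by 1.12 ± 0.18. PLCG1 (34.9 against 72.7 TPM), the phosphatase PTPN11 (88.9 against 131.3), NRAS (36.1 against 67.3) and SOS1 (14.04 against 17.77) were lower. Of 14 feedback inhibitors and targets, 2 were higher, 7 were lower and 5 were not called (median -0.72). Those higher in RT112 were DUSP6, a phosphatase of ERK, at 112.26 and 107.73 TPM against 25.96 and 20.1, and the transcription factor ETV4, at 66.13 and 65.37 TPM against 13.97 and 20.71. Their log2 fold changes were 2.26 ± 0.14 and 1.94 ± 0.21. The inhibitors SPRED2 (22.1 against 48.2 TPM), DUSP4 (13.3 against 22.9), SPRY2 (13.4 against 21.1) and SPRY4 (3.03 against 12.8) were lower. The targets of the cascade thus did not move as 1 group between the lines.

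Of 16 genes of the TACC family and mitotic partners, 5 were higher in RT112 (TACC3 included), 6 were lower and 5 were not called (median -0.07). AURKA was at a mean of 148.9 against 97.4 TPM (log2 fold change 0.61 ± 0.062), PLK1 at 230.0 against 190.0 and CDK1 at 189.5 against 140.8. TPX2, an activator of AURKA, was lower (211.4 against 335.1 TPM), as were AURKB (170.0 against 224.0), MKI67 (95.5 against 108.1) and BUB1B (63.1 against 85.7). The binding partners CKAP5 and CLTC were not called, with log2 fold changes of -0.09 and 0.15. The relatives TACC1 and TACC2, named here after their values were seen, had log2 fold changes of 0.36 and -1.54.

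**Figure D3:**
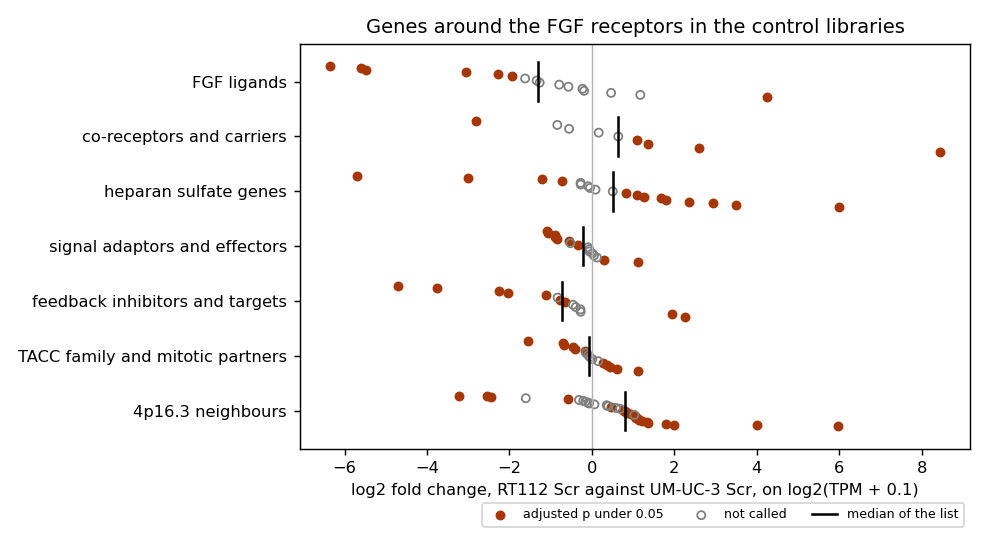
Log2 fold change on log2(TPM + 0.1) of each tested gene, RT112 Scr against UM-UC-3 Scr (horizontal axis), by gene list (vertical axis), with called genes filled and the list median as a bar. Ligands lie mostly to the left (median -1.30). Genes of 4p16.3, with FGFR3 and TACC3 counted among them, lie mostly to the right (median 0.79).

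Neighbours of TACC3 and FGFR3 were then described. Of 36 tested genes of 4p16.3, the chromosome band that holds TACC3 and FGFR3, 20 were higher in RT112, 4 were lower and 12 were not called. Their median was 0.79. Over all 19201 genes tested, 51.6% were called in either direction. TACC3, FGFR3 and FGFRL1 are themselves counted among these 36 genes. SLBP, a histone mRNA binding protein, had a log2 fold change of 1.06 ± 0.042, TMEM129 1.05 ± 0.12 and LETM1 0.84 ± 0.12. ADD1 (0.79) and CTBP1 (0.46) were also called. TACC3 had 1.12 and FGFR3 5.97. The histone methyltransferase NSD2, listed as WHSC1, was lower by -0.58 ± 0.075, as were MXD4 (-3.22), NAT8L (-2.46) and SPON2 (-2.54).

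By RefSeq position, and with regions chosen after the values were seen, the 42 genes in the first 4 Mb of chromosome 4 with a mean of at least 1 TPM had a median log2 difference of 1.00, and 36 of them were higher in RT112. Without FGFR3 the median of the 41 others was 0.98. The 96 genes from 4 to 50 Mb had a median of 0.71, the 294 genes after 50 Mb one of -0.31, and all 12801 such genes one of -0.04. The siPAI-1 libraries gave 0.90, 0.75 and -0.34 for the same 3 regions. Genes far from TACC3 and FGFR3 up to 50 Mb thus also had a median above 0. DOK7 (7.39), SH3BP2 (4.02) and ADRA2C (3.62), named after their values were seen, were the other genes of the first 4 Mb that lay more than 3 log2 units higher in RT112.

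**Figure D4:**
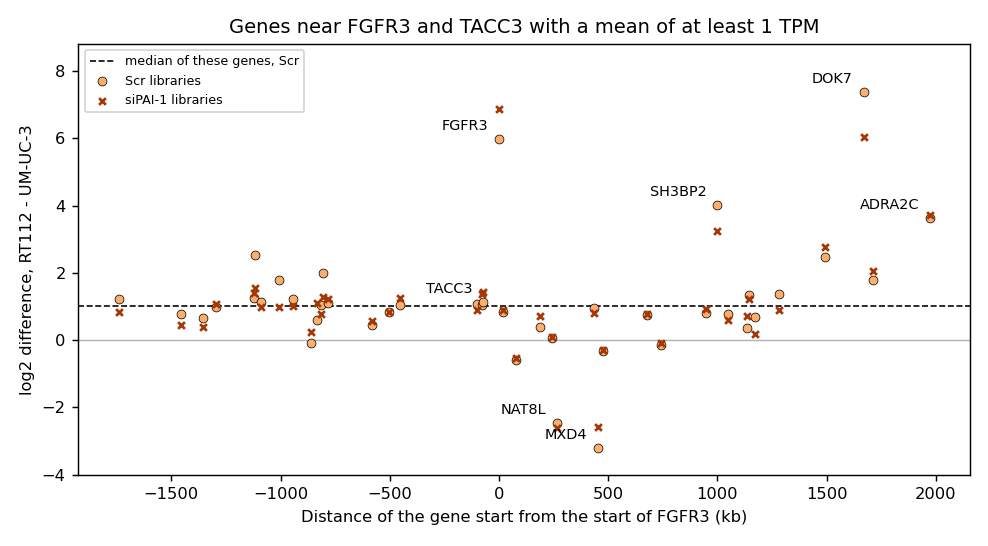
Log2 difference of RT112 minus UM-UC-3 on log2(TPM + 0.1) for the 42 genes in the first 4 Mb of chromosome 4 with a mean of at least 1 TPM, against the distance (kb) of the gene start from that of FGFR3, in Scr (circles) and siPAI-1 libraries (crosses). Of the 42 genes 36 lie above 0 in Scr, with a dashed median of 1.00, TACC3 at 1.12 and FGFR3 at 5.97.

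The genes most like a given gene were found by the root mean square difference of centred log2(TPM + 0.1) values over the 8 libraries, among 12801 genes. For FGFR3 they included SAMD10 (0.212), BTBD16 (0.234), ACOXL (0.243) and IL20RA (0.244). These 4 were under 0.3 TPM in each UM-UC-3 library. SAMD10, for example, was at 11.01 and 13.32 TPM in RT112 Scr, at 17.26 and 13.65 in RT112 siPAI-1 and between 0.06 and 0.13 in UM-UC-3. For TACC3 they were PNKD (0.0473), CMTM4 (0.0475), NEU1 (0.0605), PARS2 (0.0625) and DHX32 (0.0634). For FGFR1 they were STAC (0.158), SBSN (0.187), HSD17B8 (0.19), GALC (0.207) and SLC4A4 (0.221). In these lists the difference between the lines dominates the likeness.

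The second question was whether PAI-1 knock-down changed these genes within a line. None of the 7 genes was called in either line at an adjusted p under 0.05, and neither was any other gene, so that the background was 0% of 18437 genes in RT112 and 0% of 18528 in UM-UC-3. At an unadjusted p under 0.05, 1063 genes (5.77%) passed in RT112 and 1114 (6.01%) in UM-UC-3. Among the 7 genes this held for FGFR3 in RT112 and for TACC3 in UM-UC-3. The values of siPAI-1 and Scr did not overlap for 3 of the 7 genes in RT112, where 32.7% of all genes did not overlap, and for 5 of 7 in UM-UC-3, where 32.2% did not.

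In RT112, FGFR3 was at 195.37 and 154.14 TPM with siPAI-1 against 130.45 and 131.3 with Scr. Both siPAI-1 libraries lay above both Scr libraries, and they differed from each other more than the Scr libraries did. The log2 fold change was 0.41 ± 0.12 (95% interval 0.08 to 0.73, limma adjusted p = 0.838). TACC3 was at 221.89 and 200.76 TPM against 187.77 and 193.63, a log2 fold change of 0.15 ± 0.069 (adjusted p = 0.838). FGFBP1 was at 59.67 and 42.88 TPM against 39.56 and 39.69, a log2 fold change of 0.35 ± 0.17 (adjusted p = 0.838). For all 3 genes the higher siPAI-1 value was that of replicate 1, which was also the library with the lowest sum of epithelial markers in RT112 (12361 TPM). Abundant keratins set that sum: KRT5, KRT7, KRT8 and KRT18 were lowest there among the RT112 libraries. EPCAM, GATA3, PPARG, FOXA1, UPK1A, UPK1B, UPK2 and UPK3A were instead highest there, and KRT19 and CDH1 lay between. The part of that library's makeup in these values was not tested. FGFR2 was at 9.22 and 13.12 TPM against 12.2 and 13.96, and FGFR1 at 2.07 and 2.95 against 5.81 and 2.88, both with overlapping groups. FGFR4 (1.28 and 1.32 against 1.48 and 1.07) and FGF2 (0 and 0.03 against 0 and 0.04) also overlapped.

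In UM-UC-3, TACC3 was at 78.32 and 78.44 TPM with siPAI-1 against 86.1 and 89.29 with Scr. The replicates were close and the groups did not overlap. The log2 fold change was -0.16 ± 0.056 (95% interval -0.30 to -0.02, limma adjusted p = 0.810). FGFR3 was at 1.46 and 1.29 TPM against 2.21 and 1.78, a log2 fold change of -0.50 ± 0.33 (adjusted p = 0.858). FGFR1, the main receptor of this line, was at 83.6 and 84.33 TPM against 74.76 and 86.11, with a log2 fold change of 0.07 and a 95% interval from -0.15 to 0.28. FGFR4 was at 5.05 and 3.72 TPM against 7.03 and 4.84, and FGF2 at 6.26 and 6.79 against 5.69 and 5.51. FGFR2 was at 0.43 and 0.23 TPM against 0.21 in both Scr libraries, a log2 fold change of 0.43 ± 0.45, and the siPAI-1 replicates lay farther apart than replicate 2 lay from Scr. FGFBP1 was listed at 0.1 and 0.04 TPM against 0 and 0.03, which is too low for a difference to be read. In UM-UC-3 the 3168 genes with the highest G and C content of the transcript had median log2 differences from Scr of -0.07 and -0.08 in the siPAI-1 libraries, and the 3168 with the lowest had 0.05 in both. FGFR3 (62.2% G and C), TACC3 (57.25%) and FGFR4 (63.4%) belong to the first of these sets. In the RT112 siPAI-1 libraries the first set had median differences of 0 and 0.04, and the second 0.02 and -0.01. The part of this in the values of the 7 genes was not tested in either line.

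**Figure D5:**
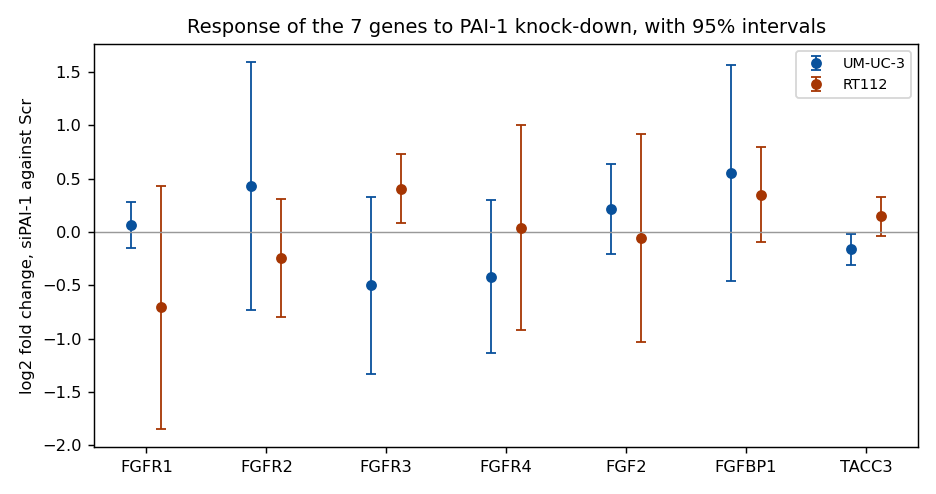
Log2 fold change of siPAI-1 against Scr on log2(TPM + 0.1) for the 7 genes in UM-UC-3 and RT112, with 95% intervals from limma on 2 against 2 libraries. No gene passed after adjustment, and FGFR3 and TACC3 have estimates above 0 in RT112 (0.41 and 0.15) and below 0 in UM-UC-3 (-0.50 and -0.16).

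Whether the response to siPAI-1 differed between the lines was tested by the interaction of siRNA and cell line over all 8 libraries. No gene was called at an adjusted p under 0.05 (0% of 20274), and 1370 (6.76%) passed an unadjusted p under 0.05. Among the 7 genes these were FGFR3 and TACC3. The difference of the responses, RT112 minus UM-UC-3, was 0.91 ± 0.22 on the log2 scale for FGFR3 (95% interval 0.38 to 1.43) and 0.31 ± 0.086 for TACC3 (0.10 to 0.51), each with a limma adjusted p of 0.632. For the other 5 genes the intervals held 0. The G and C content of the transcripts was not taken into account in this test. With siPAI-1 the share of FGFR3 among the receptors in RT112 was 93.95% and 89.86%, and the ratio of FGFR3 to TACC3 TPM was 0.88 and 0.768. FGFR1 had 92.3% and 94.15% of the receptor TPM in UM-UC-3. The dominant receptor of each line was thus the same in all of its 4 libraries. Of the gene lists, none had a gene called by knock-down or by the interaction.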

How the data were processed

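RNA-seq of 2 cell lines with 2 siRNA pools gave 8 libraries, grouped by their labels. Per gene, the deposited tables give TPM and FPKM to 2 decimals, both computed by the authors. The submitters' processing notes name STAR 2.5.0, RSEM 1.2.25 and GRCh38, while the paper's methods name featureCounts and DESeq2. No counts were used here, so tests ran on the log scale: limma 3.58.1 in R 4.3.3 (two-sided, eBayes with a trend) on log2(TPM + 0.1), Benjamini-Hochberg adjusted over all genes above 0 in at least 1 library fitted. Of 27567 entries, 92 spike-ins at 0 were left out, and 7201 human genes were at 0 throughout. From the steps of low FPKM values, depth was estimated at 29.25 to 34.15 M reads per library, searching only from 20 to 45 M since a depth 2 times as large gives whole reads as well. The test was tested on simulated data.

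The 7 genes and all gene lists were chosen with earlier results of these data known. Named are the 7 genes, in each list at most the 4 called genes of highest mean TPM per direction, the nearest neighbours of FGFR3 and TACC3, and the 5 genes most like FGFR3, TACC3 and FGFR1. Of the genes covered by this rule, 2 are not reported here. Alternatives were other pseudocounts, FPKM, median ratio rescaling, a filter at a mean of 1 TPM, no trend, 1 fit over all libraries, a replicate block and each library left out. Promoters and positions come from RefSeq on GRCh38.p14, matched by symbol (20505 genes). Tables and plots used Python 3.11.15 with pandas 2.3.3, numpy 2.4.6 and matplotlib 3.10.9.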

Additional observations from a re-analysis of the deposited data

Results flagged for a closer look

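FGFR3 and TACC3 were both higher with siPAI-1 than with Scr in each RT112 library and lower in each UM-UC-3 library. The groups did not overlap in either line. Taken line by line and in any direction, this held for 32.7% of all genes in RT112 and 32.2% in UM-UC-3. The share of all genes without overlap in both lines and with opposite directions was not counted. None of the 4 differences of FGFR3 and TACC3 passed after adjustment (limma, adjusted p between 0.810 and 0.858). For FGFR3 the difference between the responses, RT112 minus UM-UC-3, was 0.908 on the log2 scale, and for TACC3 it was 0.308. Neither passed after adjustment over 20274 genes (limma, adjusted p = 0.632 for both). In UM-UC-3 the FGFR3 values lie between 1.29 and 2.21 TPM. Transcripts rich in G and C, FGFR3 and TACC3 among them, shifted differently in the 2 lines, and the part of this was not tested.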

How the results depend on the processing

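All 7 genes stayed called between the lines in both siRNA conditions under other pseudocounts, FPKM, rescaling, the filter, no trend and 1 fit over 8 libraries, and 0 of the 7 were called by knock-down or interaction in any alternative. Leaving out 1 library, which leaves a lone sample assumed to vary like the other group, gave 5698 to 6564 called genes in place of 9909 in Scr (5 to 6 of the 7 genes) and 5294 to 7142 in place of 10108 in siPAI-1 (5 to 7 of 7). For the interaction, where 0 genes were called, it gave 0 to 123 (20 without RT112 siPAI-1 replicate 1, 123 without replicate 2, 1 without UM-UC-3 Scr replicate 2 and 44 without UM-UC-3 siPAI-1 replicate 1), and no trend gave 7. One fit over all libraries called 2 genes for knock-down in RT112, and the filter called 1 in UM-UC-3. The cause was not tested. Estimates that turned sign were all far from the threshold. With 1 library left out, the knock-down estimates in RT112 ranged from -0.50 to 0.0076 for FGFR2 (the latter without siPAI-1 replicate 1), from -0.17 (without Scr replicate 2) to 0.26 for FGFR4, and from -0.30 to 0.19 for FGF2 (0.19 without Scr replicate 2 and 0.14 without siPAI-1 replicate 1). That of FGFR1 in UM-UC-3 ranged from -0.036 (without Scr replicate 1) to 0.17. The interaction of FGFBP1 ranged from -0.46 to 0.055 (without UM-UC-3 siPAI-1 replicate 1), with 0.036 without RT112 siPAI-1 replicate 2, and was 0.27 with a pseudocount of 1 TPM. The interaction of FGFR3 ranged from 0.74 to 1.08 and that of TACC3 from 0.24 to 0.38 when 1 library was left out.

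The main tests did not pair libraries by replicate number. The deviations of same-numbered libraries correlated at -0.04 to 0.04 across genes, so no shared shift was visible. This cannot show whether the libraries came from the same experiment, since a small shared shift would look the same. With the replicate block 9387 genes were called between the lines in Scr and 9365 in siPAI-1, all 7 genes among them, and 0 by knock-down or interaction. Groups of 2 libraries limit what can be seen at all levels, and the main tests called no gene by knock-down. A missing call thus does not show that a gene was unchanged. Values without counts add a limit at low levels, above all for FGFBP1 in UM-UC-3 and FGF2 in RT112.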
